A study of Macaca mulatta with 22 samples.

Results

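The genes described here are the translation initiation and elongation factors in the transcriptome of rhesus macaque oocytes and preimplantation embryos. Entries of the deposited table were taken by symbol, those that start with EIF or EEF and a digit, without the EIF4E family, and with a level of at least 1 RPKM (reads per kilobase of transcript, scaled to library size) in at least 2 of the 22 libraries. The symbol rule reached 74 of 35468 entries, and 66 entries of 52 symbols passed the level rule, out of 14312 entries of the whole table that did. The 8 that did not pass had no library at 1 RPKM, and their highest value was 0.984 RPKM, for EEF1A2 in an 8-cell embryo. At the other side of the limit, 5 entries passed with exactly 2 libraries, while 29 had at least 1 RPKM in all 22. Among the 66, EIF1B-AS1 is named as an antisense RNA and is no factor (0 to 3.29 RPKM, no call), which leaves 65 factor entries.

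Each library was 1 oocyte or 1 embryo. Per the labels, oocytes were collected after death from superovulated donors at the germinal vesicle stage (2 libraries, GV), at metaphase I (2, MI) and at metaphase II (3, MII). Per the same labels, embryos were made by sperm injection into the oocyte and cultured in vitro: pronuclear (3 libraries, PN), 2-cell (2, 2C), 4-cell (3, 4C), 8-cell (2, 8C), morula (3, Mo) and blastocyst (2, Bl). PN and MII therefore differ in source as well as in stage, and so do Bl and GV. In both comparisons source and stage cannot be told apart. No label names an animal, so p-values measure only the spread between these libraries, which may be technical. RNA was amplified with a kit that primes on poly(A) tails. Tail length was not measured, so a change in the amount of an RNA and in its tail cannot be told apart. RPKM is a level relative to all RNA of the library, so fewer cells of a type and less RNA per cell cannot be told apart either.

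Protein synthesis starts when eIF2 brings the initiator tRNA to the small ribosomal subunit, while eIF3 and the eIF4 factors load the mRNA and start codon factors control the choice of the first AUG and the joining of the large subunit. The exchange factor eIF2B recharges eIF2 with GTP, and kinases that phosphorylate the eIF2 alpha subunit block this step under stress. eEF1A then delivers aminoacyl-tRNAs, eEF1B recharges eEF1A, and eEF2 moves the ribosome along the mRNA. A grown oocyte stores ribosomes and mRNA and makes no new transcripts during its maturation, so early embryos translate maternal mRNA until their own genome is switched on.

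Estimated from the steps between low values, depth ran from 5.48 to 21.34 M reads. Between 6763 and 10017 entries reached 1 RPKM in 21 of the libraries, against 4277 in Mo library 2, which stands apart. Oocyte markers (10 genes) summed to 12.8 to 35.7 RPKM in Mo and Bl embryos, against 4607 to 10556 RPKM in oocytes. Genome activation markers (5 genes) summed to 5527 to 7074 RPKM at 8C, against 11.8 to 15.4 RPKM at 4C, and blastocyst markers (6 genes) to 915 to 1234 RPKM at Bl, against 4.14 to 69.2 RPKM at Mo. The 9 cumulus and granulosa cell markers stayed at or below a sum of 9.16 RPKM in every library, with AMHR2 and FOXL2 at 0 in all of them. A stage mean of 1 RPKM or more was reached by 1 of these markers in 8C embryos, 1 in morulae and 2 in blastocysts. The 6 sperm markers reached a sum of 45.2 RPKM in an 8C embryo and 10.9 RPKM in the other, with PRM1 and TNP2 at 0 in all libraries. Of these 6, 2 had a mean of at least 1 RPKM at 8C, 1 at 2C and 1 at Bl.

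Summed per library, the 65 factor entries averaged 3695 RPKM in GV oocytes, 3936 in MII oocytes, 4838 in 4C embryos, 4094 in 8C embryos, 8602 in morulae and 9001 in blastocysts. In a moderated F test over the 9 stages (limma on log2(RPKM + 1), Benjamini-Hochberg adjusted p under 0.05, named a call from here on), 43 of the 66 entries were called. The background was 68.3% of all 14312 tested entries, so the share of factor entries that varied was close to that of all entries. Of the 66 entries, 27 had their highest stage mean at Bl, which is 40.9%, against 18.1% of all tested entries. At GV 4 entries had their highest mean, which is 6.06%, against 16.3% of all tested entries. Of the other entries 3 peaked at MI (4.55%, against 9.27% of all), 6 at MII (9.09%, against 11.5%), 4 at PN (6.06%, against 9.54%) and 0 at 2C, where 5.01% of all did. A further 5 peaked at 4C (7.58%, against 4.76%), 7 at 8C (10.6%, against 15.7%) and 10 at Mo (15.2%, against 9.69%).

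**Figure D1:**
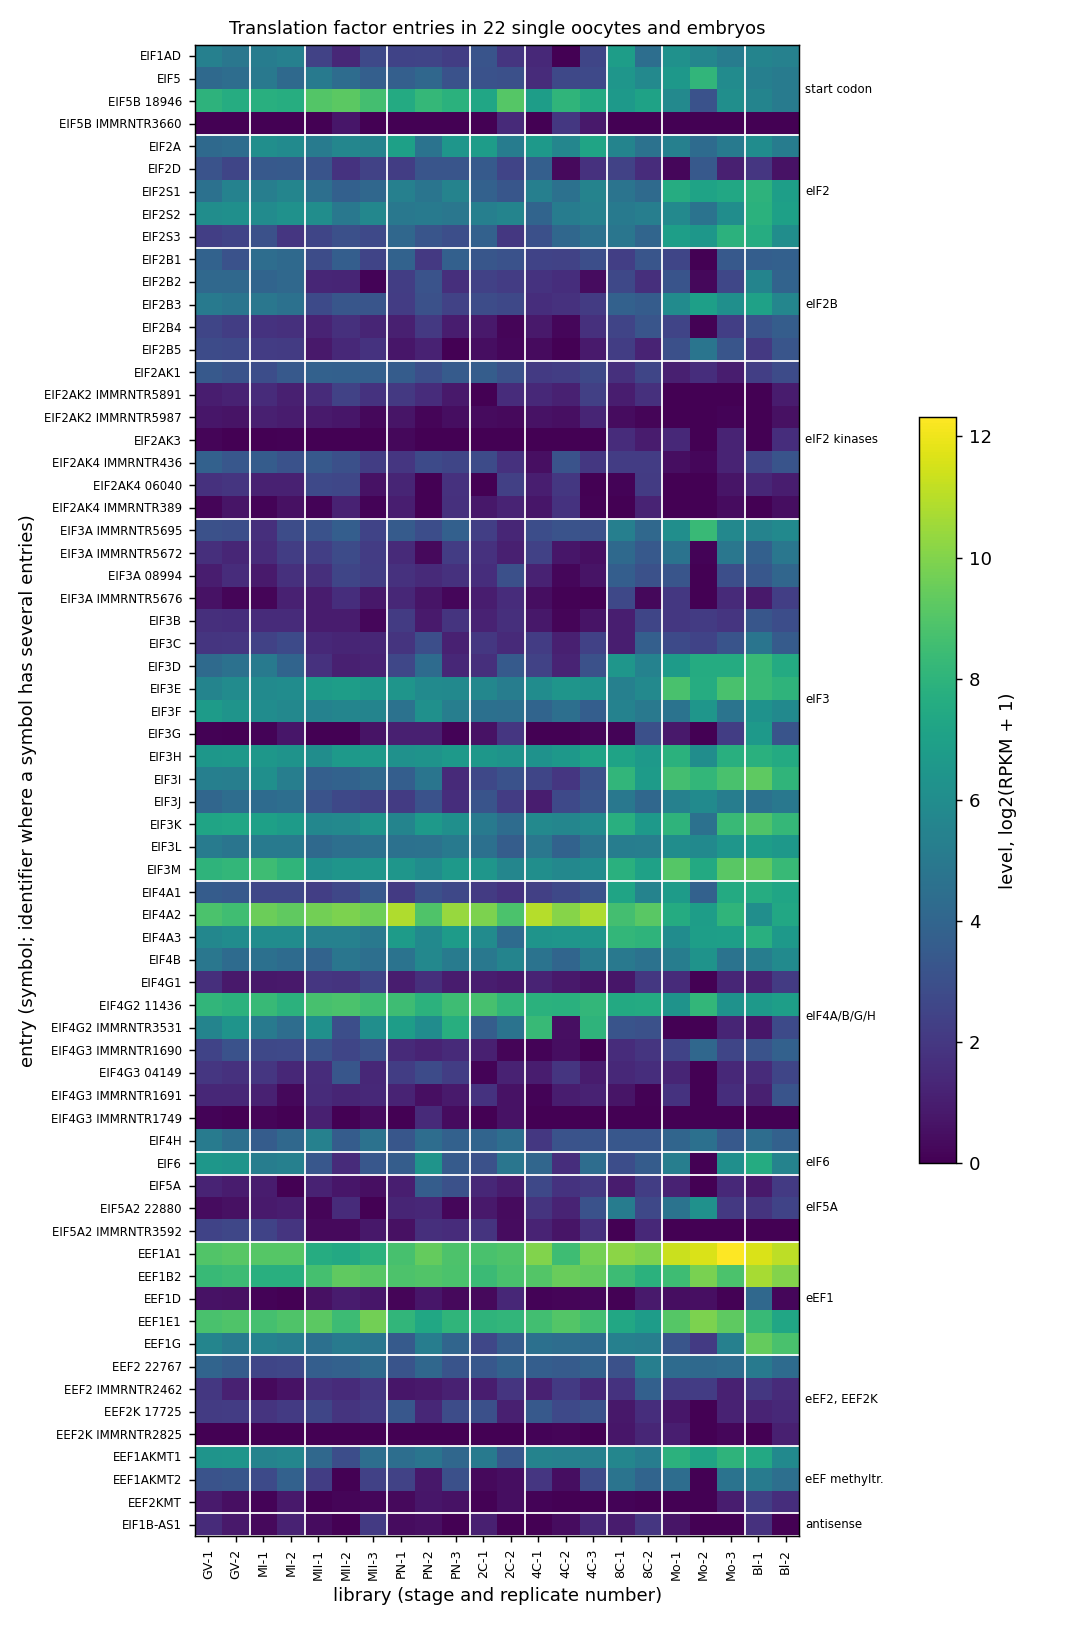
Level of each of the 66 entries (rows, grouped by factor) in each of the 22 libraries (columns, in order of stage), as log2(RPKM + 1) in colour. EIF4A2, EEF1A1, EEF1B2 and EEF1E1 are bright in most libraries, while EIF3I, EIF3D, EIF4A1, EIF2S1 and EIF2S3 are brighter at Mo and Bl than at 4C.

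In the comparison of neighbouring and end stages, the later stage is set against the earlier one. Comparisons that have a stage in common share its libraries. Genes were chosen for naming partly because their libraries of the stages compared did not overlap. A lack of overlap given below is thus a description and no added support, and its share over all tested entries was not counted. Across oocyte maturation, in MII against GV oocytes, 7 of the 66 entries were called lower and 0 higher by limma, where the background was 8.97% of all tested entries lower and 0.342% higher. At an unadjusted p under 0.05, 11 entries were lower and 1 was higher, and the share of all tested entries at that limit was not counted. In PN embryos against MII oocytes 1 entry was called higher (background 4.76%) and 1 lower (2.91%). In 8C against 4C embryos, across genome activation, 14 entries were called higher (background 13.9%) and 3 lower (10.2%). In Mo against 8C embryos 10 were called higher (5.39%) and 2 lower (20.0%). In Bl against Mo embryos 8 were called higher (12.0%) and 1 lower (2.12%). In Bl embryos against GV oocytes 19 were called higher (12.0%) and 3 lower (24.7%). The median log2 difference of the 66 entries was 0.71 in Bl against GV, with -0.37 over all tested entries, and 0.48 in 8C against 4C, with 0 over all. It was 0.44 in Bl against Mo, with 0.23 over all, and -0.13 in both MII against GV and Mo against 8C, with -0.19 and -0.38 over all.

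**Figure D2:**
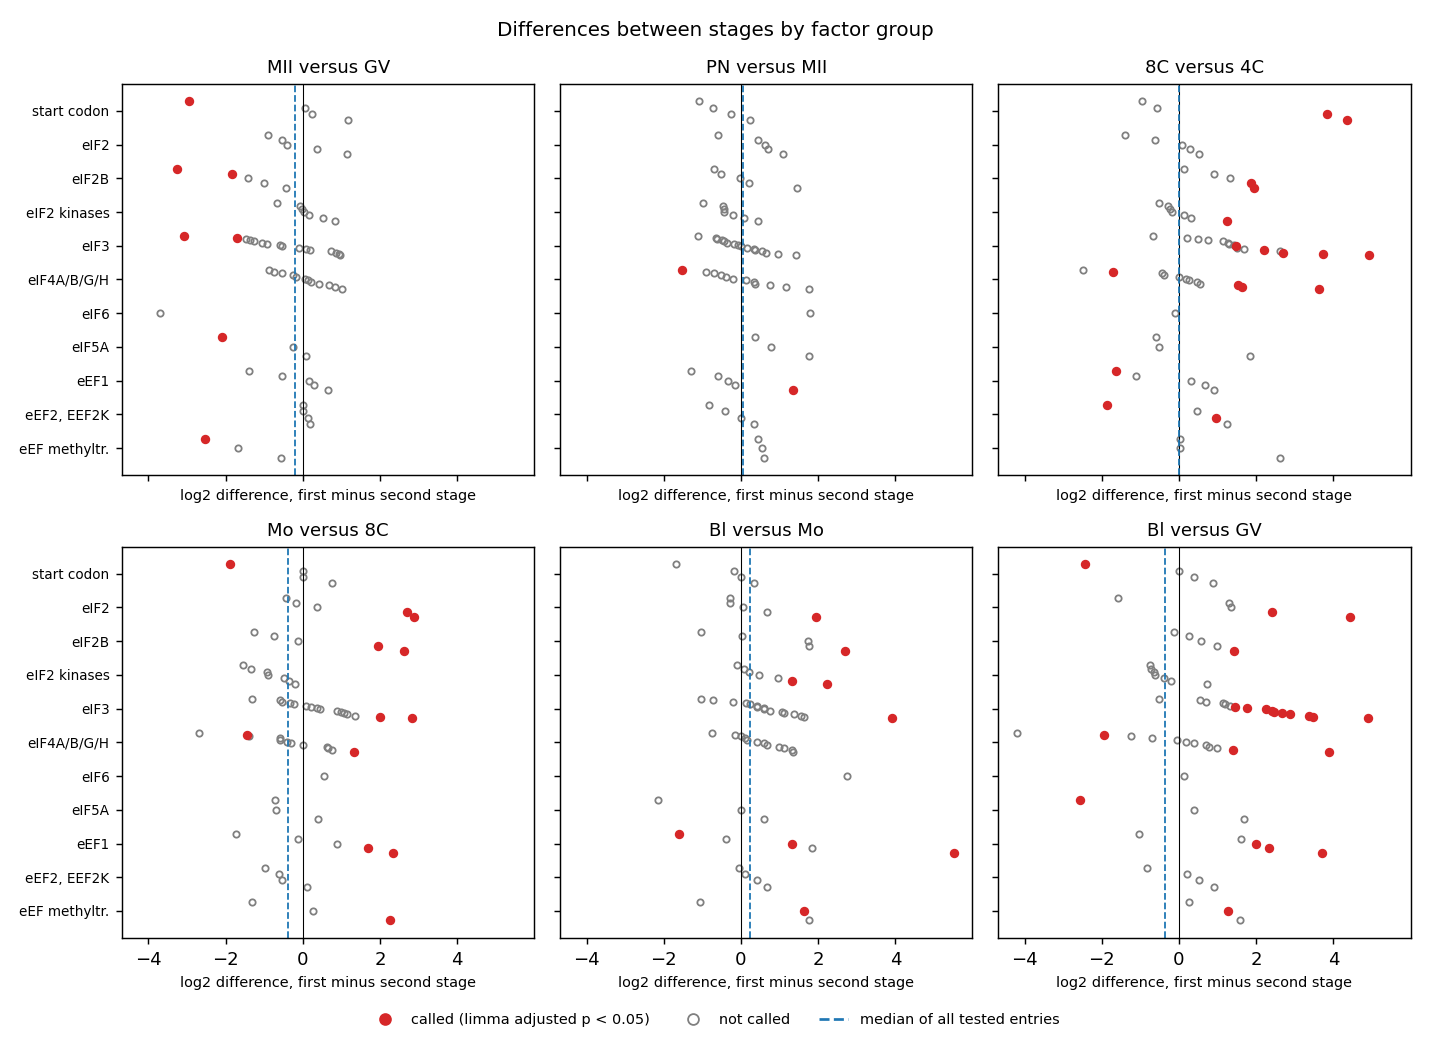
Log2 difference of each factor entry (points) in 6 comparisons, grouped by factor, with the first named stage minus the second on log2(RPKM + 1); red points were called by limma and the dashed blue line is the median of all tested entries. The called eIF3 entries, 5 in 8C versus 4C and 10 in Bl versus GV, lie right of 0 in these panels, and the 7 called entries of MII versus GV lie left of it.

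These counts depended on single libraries. The 7 calls in MII against GV became 0 without GV library 1 and 0 without GV library 2 (limma, with 9 and 10 entries at an unadjusted p under 0.05), 4 without MII library 2 and 11 without Mo library 2. The 2 calls in PN against MII became 0 without MII library 1, MII library 3, PN library 2 or PN library 3 (9, 6, 9 and 6 entries at an unadjusted p under 0.05), 1 without MII library 2 or PN library 1, and 4 without Mo library 2. The 17 calls in 8C against 4C became 11 without 4C library 1, 4C library 3 or 8C library 1. Without 8C library 2, 5 of the 12 calls in Mo against 8C were left in number. Without Bl library 1 the 9 calls in Bl against Mo became 3. The 22 calls in Bl against GV became 14 without GV library 1 and 13 without GV library 2. Scaling by median-of-ratios size factors moved the median difference of all tested entries by 0.14 in MII against GV, 0.13 in Mo against 8C, -0.15 in Bl against Mo and 0.36 in Bl against GV. Under it 5 entries were called higher and 3 lower in Bl against Mo, and 24 higher and 1 lower in Bl against GV. The medians of the 66 entries changed sign to 0.01 in MII against GV and 0.18 in Mo against 8C. The share of all tested entries called is given here for the main fit only, so counts of other fits have no background beside them.

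Among the entries grouped as start codon factors, EIF5 and EIF1AD were those called higher at 8C. EIF1AD was grouped here for its domain alone, and a role in start codon choice was not tested. EIF5 activates the GTPase of eIF2 when the start codon is recognised. It measured 87.6 and 54.0 RPKM in 8C embryos, against 1.89, 5.29 and 5.55 RPKM in 4C embryos. Both 8C embryos were well above all 3 4C embryos (log2 difference 3.83 ± 0.59 SE, limma adjusted p = 9.003e-05). EIF1AD, a nuclear protein with a domain like that of eIF1A, measured 116 and 20.9 RPKM at 8C, against 1.66, 0 and 4.91 RPKM at 4C (4.34 ± 0.71, limma adjusted p = 0.000166). Both calls held under every alternative run, but the EIF1AD difference was 3.13 without 8C library 1, 5.55 without 8C library 2, 3.68 without 4C library 2 and 4.96 without 4C library 3. EIF1AD was also lower in MII oocytes, at 4.42, 1.58 and 5.62 RPKM, against 39.6 and 28.7 RPKM in GV oocytes (-2.94 ± 0.71, limma adjusted p = 0.0129), and at MI it was still at 35.4 and 40.1 RPKM. That call ended without GV library 1 (adjusted p = 0.149), GV library 2 (0.0666) or MII library 2 (0.0669), and with a pseudocount of 0.1 (0.106).

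EIF5B, the GTPase that joins the subunits, ran the other way. Its main entry averaged 219 ± 35.3 RPKM at GV, 500.3 ± 91.9 at MII, 236 ± 57.3 at PN, 184 ± 74.7 at 4C, 118 ± 27.9 at 8C, 42.8 ± 31.1 in morulae and 39.7 ± 8.58 in blastocysts (SD, n = 2 or 3). The 2 libraries at 2C lay far apart, at 155 and 526 RPKM. EIF5B fell in Bl embryos, at 45.8 and 33.7 RPKM, against 244 and 194 RPKM in GV oocytes (-2.44 ± 0.75, limma adjusted p = 0.0149). It also fell in Mo embryos, at 54.2, 7.57 and 66.5 RPKM, against 98.1 and 138 RPKM in 8C embryos (-1.88 ± 0.68, limma adjusted p = 0.0494), with Mo library 2 the lowest. The first call ended without GV library 1 (adjusted p = 0.0899) or Bl library 2 (0.081) and under median-of-ratios scaling (0.0911). The second ended without 8C library 1 (0.101), 8C library 2 (0.218) or Mo library 2 (0.165, log2 difference -0.94), under that scaling (0.139), with no filter (0.0761), with a replicate block (0.0571) and in a fit of only these stages (0.419). A second EIF5B entry, IMMRNTR3660, lies on chromosome 18, while the main entry lies on chromosome 13, and had no value above 3.02 RPKM.

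Of the 3 subunits of eIF2, 2 were called higher in Mo against 8C embryos, and of the 5 entries of their group the same 2. Of all tested entries, 5.39% were called higher and 20.0% lower in this comparison. EIF2S1, the alpha subunit that stress kinases phosphorylate, measured 194, 139.9 and 168 RPKM in Mo embryos, against 25.4 and 18.4 RPKM in 8C embryos. All Mo embryos were above both 8C embryos (2.88 ± 0.46, limma adjusted p = 0.000117), a call that held under every alternative. EIF2S3, the gamma subunit that binds GTP and the tRNA, lies on chromosome X (21869010 to 21893101, positions as deposited). It measured 118, 90.2 and 242 RPKM at Mo, against 27.1 and 15.3 RPKM at 8C (2.69 ± 0.65, limma adjusted p = 0.00449). Over the whole series EIF2S3 measured 193 and 65.4 RPKM in Bl embryos, against 3.85 and 4.66 RPKM in GV oocytes (4.44 ± 0.71, limma adjusted p = 7.623e-05), and the difference was 3.66 without Bl library 1 and 5.21 without Bl library 2. The Mo call of EIF2S3 ended without 8C library 2 (adjusted p = 0.0573) and in a fit of only these stages (0.0781).

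EIF2S2, the beta subunit, was highest in blastocysts. It averaged 67.1 ± 3.19 RPKM at GV, 30.5 ± 14.1 at 4C, 34.5 ± 3.60 at 8C and 48.0 ± 20.6 at Mo. In Bl embryos it measured 234 and 129 RPKM, against 53.7, 25.2 and 65.2 RPKM in Mo embryos (1.94 ± 0.50, limma adjusted p = 0.0132), and every Bl value was above every Mo value. That call ended without Bl library 1 (adjusted p = 0.17), under median-of-ratios scaling (0.0744, log2 difference 1.32) and in a fit of only these stages (0.221). For EIF2S1 the Bl values, 252 and 117 RPKM, overlapped those of Mo, and against the GV values of 23.2 and 42.3 RPKM they were called higher under every alternative run (2.41 ± 0.51, limma adjusted p = 0.000949). Whether the subunits differ in timing was not tested. EIF2A and EIF2D, which can bring initiator tRNA without eIF2, had no call in the 6 comparisons. EIF2A ranged from 17.6 RPKM at GV to 143 RPKM at 4C, and EIF2D stayed at or below 12.1 RPKM.

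The 5 subunits of eIF2B together averaged 67.5 RPKM at GV and 65.7 at MI, then 19.6 at MII, 10.977 at 4C, 31.2 at 8C, 110.1 in morulae and 149 in blastocysts. EIF2B3, the gamma subunit, made up most of the late level. It measured 60.3, 121 and 69.2 RPKM at Mo, against 13.3 and 11.004 RPKM at 8C (2.63 ± 0.47, limma adjusted p = 0.000345), and this call held under every alternative. The 8C values were in turn above the 4C values of 2.11, 2.35 and 3.48 RPKM (1.86 ± 0.47, limma adjusted p = 0.00647), a call that ended without 8C library 1 (0.0524). In MII oocytes EIF2B3 measured 5.69, 8.88 and 8.47 RPKM, against 32.9 and 26.8 RPKM in GV oocytes (-1.84 ± 0.47, limma adjusted p = 0.0176). EIF2B2, the beta subunit, measured 1.52, 1.45 and 0.069 RPKM at MII, against 16.8 and 17.1 RPKM at GV (-3.26 ± 0.74, limma adjusted p = 0.00895). MII and GV did not overlap for either gene. The MII call of EIF2B3 ended without GV library 1 (adjusted p = 0.181), GV library 2 (0.085) or MII library 1 (0.0659) and under median-of-ratios scaling (0.147), and that of EIF2B2 without GV library 1 (0.0968) or GV library 2 (0.072).

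EIF2B2 was high again in Bl embryos, at 46.5 and 14.0 RPKM, against 8.13, 0.221 and 5.22 RPKM in Mo embryos (2.70 ± 0.74, limma adjusted p = 0.0191). Without Bl library 1 the difference was 1.86 (adjusted p = 0.267) and without Mo library 2 it was 1.82 (0.0665), while without Bl library 2 it was 3.53. The call also ended with a pseudocount of 0.1 (0.0743) and in a fit of only these stages (0.384). EIF2B4, the delta subunit, measured 4.80 and 8.48 RPKM at 8C, against 0.803, 0.178 and 2.32 RPKM at 4C (1.95 ± 0.62, limma adjusted p = 0.0264). EIF2B5, the catalytic epsilon subunit, measured 6.96, 26.7 and 8.52 RPKM at Mo, against 3.65 and 1.35 RPKM at 8C (1.95 ± 0.56, limma adjusted p = 0.0136), with Mo library 2 far above the other Mo embryos, whose mean was 7.74 RPKM. The EIF2B4 call ended without 4C library 1 (adjusted p = 0.0619), 4C library 2 (0.0984), 8C library 1 (0.0511) or 8C library 2 (0.164), with a pseudocount of 0.1 (0.089) and in a fit of only these stages (0.0791). The EIF2B5 call ended without 8C library 2 (0.15) or Mo library 2 (0.055), with that pseudocount (0.117) and in that fit (0.238). In Bl against GV, EIF2B3 measured 132 and 49.1 RPKM against 32.9 and 26.8 RPKM (1.41 ± 0.51, limma adjusted p = 0.0379), and this call ended without GV library 1 (adjusted p = 0.0947), GV library 2 (0.169) or Bl library 1 (0.404, log2 difference 0.71, and 2.12 without Bl library 2), with that pseudocount (0.0771), with a replicate block (0.053) and in a fit of only these stages (0.14). EIF2B1, the regulatory alpha subunit, had no call and averaged 4.91 ± 4.91 RPKM at Mo to 18.5 ± 1.75 at MI.

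The kinases of eIF2 alpha were low throughout. The 7 entries summed to a mean of 24.6 RPKM at GV, 27.5 at MII, 18.8 at PN, 13.3 at 4C, 12.8 at 8C, 3.35 in morulae and 14.5 in blastocysts. EIF2AK1, the kinase that senses haem, measured 3.90 and 5.92 RPKM in Bl embryos, against 1.09, 2.03 and 0.972 RPKM in Mo embryos (1.33 ± 0.42, limma adjusted p = 0.0389). The main entry of EIF2AK4, the kinase that senses missing amino acids (IMMRNTR436), measured 4.77 and 8.08 RPKM at Bl, against 0.373, 0.161 and 1.30 RPKM at Mo (2.23 ± 0.61, limma adjusted p = 0.0192). For both kinases the 2 stages did not overlap. In GV oocytes EIF2AK1 measured 9.70 and 7.85 RPKM and EIF2AK4 13.0 and 9.15 RPKM. The EIF2AK1 call ended without Mo library 1 (adjusted p = 0.0819), Mo library 3 (0.0886), Bl library 1 (0.079) or Bl library 2 (0.234), under median-of-ratios scaling (0.196), with a replicate block (0.0548) and in a fit of only these stages (0.15). The EIF2AK4 call ended without Bl library 1 (0.0563) or Bl library 2 (0.148) and in that fit (0.114).

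EIF2AK3, the kinase of the endoplasmic reticulum stress response, was listed at 0 in all 4C and MII libraries and at no more than 0.209 RPKM in GV, MI, PN and 2C libraries. It measured 1.92 and 0.922 RPKM at 8C (limma adjusted p = 0.0285 against 4C). That call ended without 4C library 1 (adjusted p = 0.0602), 4C library 2 (0.0584), 4C library 3 (0.0618) or 8C library 1 (0.22). At Mo it measured 1.66, 0.01 and 1.37 RPKM and at Bl 0 and 2.03 RPKM, so single embryos differed widely. The 2 EIF2AK2 entries, named for the kinase that senses double-stranded RNA, never passed 4.45 RPKM, and the other 2 EIF2AK4 entries never passed 5.63 RPKM.

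The largest group was eIF3, the scaffold of initiation, with 16 entries of 13 subunit symbols. Summed over all 16 entries it averaged 782 ± 20.1 RPKM at GV, 441 ± 43.3 at MII, 359 ± 43.0 at 4C, 920.3 ± 351 at 8C, 2033 ± 502 in morulae and 2394 ± 833 in blastocysts (SD, n = 2 or 3). In 8C against 4C, 5 of the 16 entries rose and 0 fell, where 13.9% of all tested entries rose and 10.2% fell, and their median log2 difference was 1.46, with 0 over all. In Bl against GV, 10 of 16 rose and 0 fell, where 12.0% of all rose and 24.7% fell, with a median of 2.01, against -0.37 over all. These counts and medians are by entry, not by subunit. The 10 include the ENSMMUG, IMMRNTR5672 and IMMRNTR5695 entries of EIF3A, which lie close together on chromosome 9 and may be parts of the same gene. In MII against GV, 2 of 16 fell and 0 rose, near the background of 8.97% and 0.342%, with a median of -0.56, against -0.19 over all. Under median-of-ratios scaling the counts were 5 higher in 8C against 4C, 13 higher in Bl against GV and 0 in MII against GV. The backgrounds in this paragraph are those of the main fit and are not given for this scaling. In the F test over the stages 13 of the 16 were called, where 68.3% of all tested entries were.

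**Figure D3:**
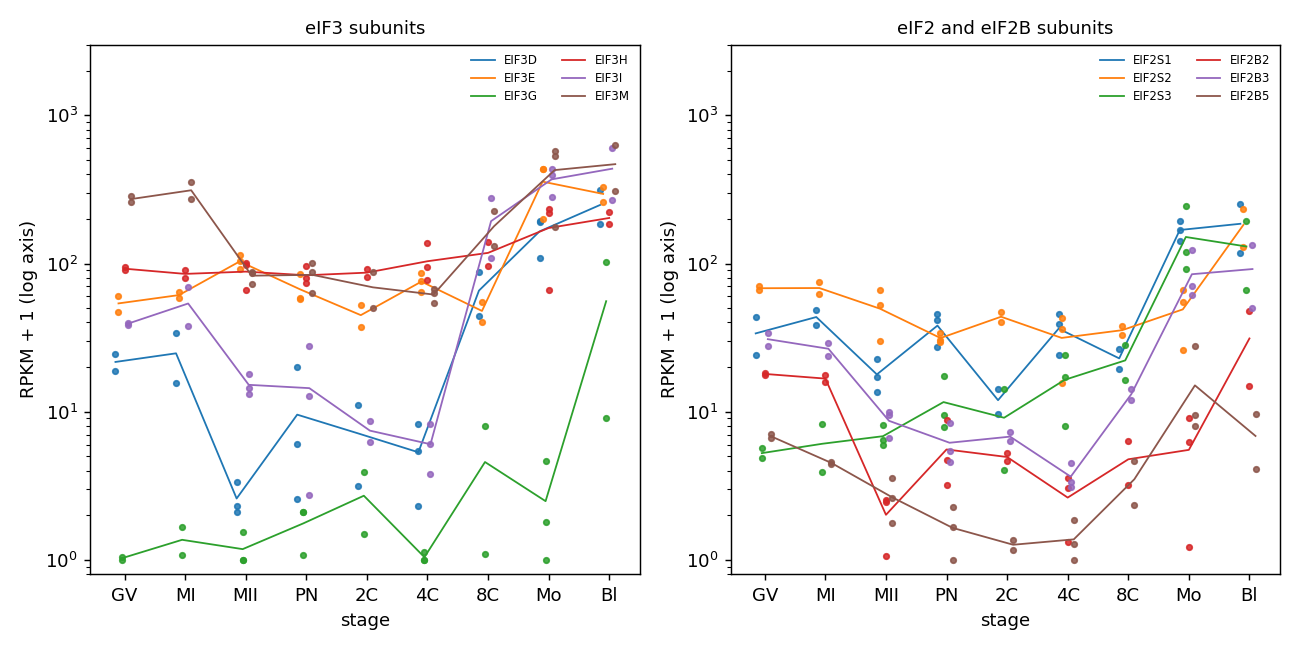
RPKM + 1 on a log axis by stage for 6 eIF3 subunits (left) and 6 subunits of eIF2 and eIF2B (right); points are libraries and lines join stage means. EIF3I and EIF3D are lowest from MII to 4C and high from 8C, EIF3H lies between 64.9 and 138 RPKM in every library from GV to 8C, and EIF3G is the lowest of the 6 in every library.

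EIF3I (ENSMMUG00000006119, chromosome 1, 34979244 to 34989425) and EIF3D (ENSMMUG00000012754, chromosome 10, 80422517 to 80440585) rose most at 8C among the eIF3 entries. EIF3I, which binds the complex together with EIF3B and EIF3G, measured 276 and 108 RPKM at 8C, against 5.02, 2.80 and 7.27 RPKM at 4C (4.92 ± 0.71, limma adjusted p = 4.449e-05). The difference was 4.24 without 8C library 1 and 5.59 without 8C library 2. EIF3D, a subunit that can bind the cap of some mRNAs, measured 86.3 and 43.0 RPKM at 8C, against 4.43, 1.31 and 7.23 RPKM at 4C (3.72 ± 0.75, limma adjusted p = 0.00109). For both genes every 8C embryo lay far above every 4C embryo, and the calls held under every alternative. Both went on to higher means in later embryos, 369 ± 78.4 RPKM in morulae and 435 ± 240.4 in blastocysts for EIF3I, and 164 ± 47.7 in morulae and 247 ± 89.1 in blastocysts for EIF3D.

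EIF3D was also the eIF3 entry with the largest drop in oocyte maturation. It measured 2.37, 1.10 and 1.31 RPKM in MII oocytes, against 17.8 and 23.5 RPKM in GV oocytes (-3.08 ± 0.75, limma adjusted p = 0.0131). EIF3M, a subunit of the core, measured 72.2, 85.9 and 87.3 RPKM at MII, against 259 and 283 RPKM at GV (-1.72 ± 0.49, limma adjusted p = 0.034). At MI both genes were still at GV levels, with 32.8 and 14.7 RPKM for EIF3D and 353 and 269 RPKM for EIF3M. The EIF3D call ended without GV library 1 (adjusted p = 0.0979), GV library 2 (0.116) or MII library 2 (0.052) and under median-of-ratios scaling (0.0737). The EIF3M call ended without GV library 1 (0.183), GV library 2 (0.192), MII library 1 (0.0933), MII library 2 (0.0807) or MII library 3 (0.0635), with a pseudocount of 0.1 (0.0537), with no filter (0.0522) and under that scaling (0.0674).

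Another 3 eIF3 entries were called at 8C. EIF3J, a loosely bound subunit, measured 29.4 and 16.0 RPKM at 8C, against 0.971, 5.47 and 8.61 RPKM at 4C (2.20 ± 0.60, limma adjusted p = 0.0108). EIF3M measured 225 and 130.2 RPKM at 8C, against 66.4, 53.5 and 62.3 RPKM at 4C (1.49 ± 0.49, limma adjusted p = 0.0346). Both genes had no overlap between the stages. The largest subunit, EIF3A, has 4 entries on chromosome 9, 1 ENSMMUG and 3 IMMRNTR. Its ENSMMUG entry measured 12.0 and 7.25 RPKM at 8C, against 1.23, 0.169 and 0.562 RPKM at 4C (2.70 ± 0.72, limma adjusted p = 0.00953). The call of EIF3J ended without 4C library 1 (adjusted p = 0.058, log2 difference 1.53) or 8C library 1 (0.119) and in a fit of only these stages (0.116), and that of EIF3A ended without 8C library 1 (0.089). That of EIF3M ended without 4C library 1 (0.0597), 4C library 2 (0.0848), 4C library 3 (0.0701) or 8C library 1 (0.263).

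Later in development EIF3E and EIF3G stood out. EIF3E, a peripheral subunit, measured 435, 198 and 435 RPKM at Mo, against 39.5 and 54.2 RPKM at 8C (2.83 ± 0.41, limma adjusted p = 3.744e-05). It had been level before, between 36.5 and 113 RPKM in all libraries from GV to 8C, and its call ended only in a fit of the 2 stages alone (adjusted p = 0.0516) among the alternatives run. EIF3G, a subunit that binds RNA, had a mean below 1 RPKM at GV, MI, MII, PN and 4C, and was the lowest eIF3 subunit at each of these stages when each symbol is read by its highest entry. It measured 101 and 8.06 RPKM in Bl embryos, against 0.791, 0 and 3.68 RPKM in Mo embryos (3.91 ± 0.86, limma adjusted p = 0.00433). The Bl embryos differed more than 10-fold from each other: without Bl library 1 the difference was 2.16 (adjusted p = 0.167), without Bl library 2 it was 5.65, and without Mo library 3 it was 4.51. In a fit of only these stages the adjusted p was 0.297. The IMMRNTR5695 entry of EIF3A measured 66.6, 326 and 52.7 RPKM at Mo, against 38.1 and 16.9 RPKM at 8C (2.00 ± 0.65, limma adjusted p = 0.0304). Its Mo mean of 148 RPKM was 59.6 RPKM without Mo library 2, and the call ended without it (adjusted p = 0.11, log2 difference 1.19), without 8C library 2 (0.249), with a pseudocount of 0.1 (0.0501) and in a fit of only these stages (0.352).

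From end to end, the firmest eIF3 rises were those of EIF3E, EIF3I, EIF3D and the IMMRNTR5695 entry of EIF3A, whose calls in Bl against GV held under every alternative. EIF3E measured 327 and 260.5 RPKM in Bl embryos, against 45.8 and 59.8 RPKM in GV oocytes (2.46 ± 0.45, limma adjusted p = 0.00025). EIF3I measured 605 and 265 RPKM at Bl, against 38.7 and 37.7 RPKM at GV (3.36 ± 0.78, limma adjusted p = 0.00214), with 2.76 without Bl library 1 and 3.95 without Bl library 2. EIF3D measured 310.4 and 184 RPKM at Bl, against 17.8 and 23.5 RPKM at GV (3.48 ± 0.82, limma adjusted p = 0.00244). The IMMRNTR5695 entry of EIF3A measured 44.7 and 56.4 RPKM at Bl, against 7.20 and 6.85 RPKM at GV (2.67 ± 0.72, limma adjusted p = 0.00646). In none of these did Bl and GV overlap. EIF3G was also called (4.89 ± 0.94, limma adjusted p = 0.000461), at 3.15 without Bl library 1, 6.64 without Bl library 2 and an adjusted p of 0.0557 in a fit of only these stages. EIF3L, with 114 and 95.1 RPKM at Bl against 34.2 and 26.4 RPKM at GV (1.76 ± 0.46, limma adjusted p = 0.00539), lost its call without GV library 2 (0.0539).

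Other eIF3 entries called in Bl against GV were at lower levels. EIF3B and EIF3C, 2 large core subunits, measured 8.66 and 6.47 RPKM, and 26.9 and 10.8 RPKM, at Bl, against 2.15 and 2.02 RPKM, and 2.67 and 2.91 RPKM, at GV (log2 differences 1.46 and 2.26, limma adjusted p = 0.031 and 0.0204). The ENSMMUG and IMMRNTR5672 entries of EIF3A averaged 12.3 ± 4.55 and 20.9 ± 11.4 RPKM at Bl, against 1.49 ± 0.683 and 1.79 ± 0.466 RPKM at GV (log2 differences 2.40 and 2.88, limma adjusted p = 0.0221 and 0.0475). All 4 calls ended without GV library 1 (adjusted p = 0.0927 to 0.135) or GV library 2 (0.0531 to 0.166) and with a pseudocount of 0.1 (0.0526 to 0.148). EIF3B, EIF3C and IMMRNTR5672 also lost the call without Bl library 1 (0.0762 to 0.192, with 1.63 for EIF3C, and 2.88 without Bl library 2), and all but EIF3C without Bl library 2 (0.0554 to 0.22). IMMRNTR5672 lost it with no filter (0.0824). The subunits EIF3F, EIF3H and EIF3K had no call in the 6 comparisons, while EIF3F and EIF3K were called in the F test (limma adjusted p = 0.0104 and 0.0164): EIF3H averaged 202 ± 26.7 RPKM at Bl and 91.3 ± 2.73 at GV, EIF3F 65.9 ± 13.6 at Bl and 95.3 ± 17.1 at GV, and EIF3K 384 ± 131 at Bl and 149 ± 7.09 at GV. The IMMRNTR5676 entry of EIF3A, at or below 5.46 RPKM, had none either.

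The eIF4A helicases, which unwind the mRNA leader, moved in opposite directions at 8C. EIF4A2 (ENSMMUG00000003702, chromosome 2, 179141092 to 179147432) was the factor with the highest mean at MI, MII, PN, 2C and 4C, and EIF4A1 (ENSMMUG00000013499, chromosome 16, 7298833 to 7305803) was low at these stages. EIF4A1 measured 144 and 44.9 RPKM in 8C embryos, against 4.03, 5.33 and 7.99 RPKM in 4C embryos (3.63 ± 0.76, limma adjusted p = 0.00167). EIF4A2 measured 399 and 572 RPKM in 8C embryos, against 1993, 1061 and 1784 RPKM in 4C embryos (-1.70 ± 0.55, limma adjusted p = 0.03). Neither gene overlapped between the stages, a condition of the naming rule, so one was higher and the other lower in each 8C embryo than in each 4C embryo. The EIF4A1 call held under every alternative, with a difference of 2.80 without 8C library 1 and 4.46 without 8C library 2. The EIF4A2 call ended without 4C library 1 (adjusted p = 0.0943), 4C library 3 (0.0826), 8C library 1 (0.188) or 8C library 2 (0.0574) and with a replicate block (0.0507).

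As a share of the RPKM of both genes, EIF4A1 took 2.38% and 2.60% at GV, a mean of 0.743% at MI, 0.755% at MII, 0.654% at PN and 0.456% at 2C, and 0.202%, 0.50% and 0.446% at 4C. It then took 26.6% and 7.27% at 8C, 36.1%, 10.4% and 41.6% at Mo, and 74.4% and 47.0% at Bl. The lowest share from 8C on was above the highest share before it, and Mo library 2 held the lowest Mo share. In RPKM, EIF4A1 measured 194 and 148 RPKM in Bl embryos, against 11.1 and 9.96 RPKM in GV oocytes (3.89 ± 0.84, limma adjusted p = 0.00122), a call that held under every alternative. EIF4A2 measured 66.9 and 167 RPKM in Bl embryos, against 455 and 373 RPKM in GV oocytes (-1.95 ± 0.60, limma adjusted p = 0.016). That second call ended without GV library 1 (adjusted p = 0.0961), GV library 2 (0.051) or Bl library 1 (0.196, log2 difference -1.30, and -2.61 without Bl library 2), under median-of-ratios scaling (0.0956, -1.19) and in a fit of only these stages (0.0649). The EIF4A1 mean at Mo, 103 RPKM, was 60.8 RPKM without Mo library 3.

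**Figure D4:**
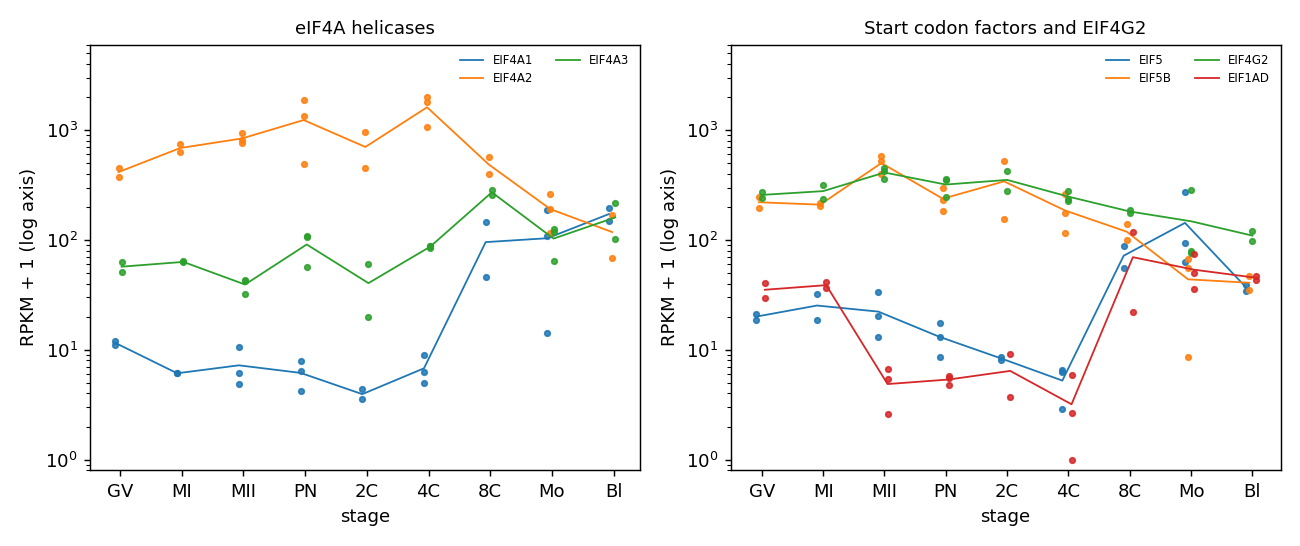
RPKM + 1 on a log axis by stage for the 3 eIF4A helicases (left) and for EIF5, EIF5B, EIF4G2 and EIF1AD (right); points are libraries and lines join stage means. EIF4A1 and EIF5 are higher in both 8C embryos than in the 3 4C embryos, while EIF4A2 is lower, and EIF4A2 and EIF5B are lower in Bl embryos than in GV oocytes.

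EIF4A3, a related helicase of the exon junction complex, which marks spliced mRNA, peaked at 8C. It measured 285 and 256 RPKM at 8C, against 83.1, 86.2 and 87.9 RPKM at 4C (1.64 ± 0.49, limma adjusted p = 0.0193). At Mo it measured 63.5, 118 and 124 RPKM, against the same 8C values (-1.46 ± 0.49, limma adjusted p = 0.035). No Mo or 4C embryo reached the 8C values. The first call ended without 8C library 1 (adjusted p = 0.102) or 8C library 2 (0.0607). The second ended without 8C library 1 (0.138), 8C library 2 (0.0966) or Mo library 1 (0.115), under median-of-ratios scaling (0.206) and in a fit of only these stages (0.141). In Bl against GV it averaged 159 ± 82.1 RPKM against 56.1 ± 8.01 RPKM (1.40 ± 0.54, limma adjusted p = 0.0492). This last call ended without GV library 1 (0.203), GV library 2 (0.107) or Bl library 1 (0.362), with a pseudocount of 0.1 (0.0597), with no filter (0.0647), with a replicate block (0.0561) and in a fit of only these stages (0.0998).

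Of the eIF4G scaffolds, EIF4G2, which lacks the site for the cap binding protein, was far above EIF4G1. The ENSMMUG entry of EIF4G2 averaged 256 ± 24.8 RPKM at GV, 409.9 ± 45.8 at MII, 247 ± 29.3 at 4C, 181 ± 6.74 at 8C, 147 ± 120.3 in morulae and 108 ± 15.5 in blastocysts. It was called in the F test (limma adjusted p = 0.011) and in none of the 6 comparisons. Its Mo mean was 77.4 RPKM without Mo library 2. EIF4G1, the main scaffold of cap-dependent initiation, never passed 4.67 RPKM in any library. A second entry named EIF4G2 by the file, IMMRNTR3531, lies on chromosome 18, while the ENSMMUG entry lies on chromosome 14. It may not be part of the same gene. It differed widely between libraries of a stage, with 314, 0.438 and 256 RPKM at 4C and 71.7, 6.79 and 67.7 RPKM at MII. It too was called in the F test (limma adjusted p = 0.0116) and in none of the 6 comparisons. EIF4B and EIF4H, which assist the helicase, had no call, at 14.2 to 78.8 RPKM for EIF4B and 3.05 to 41.5 RPKM for EIF4H.

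EIF4G3, a homologue of EIF4G1, has 4 entries on chromosome 1, and the calls were those of IMMRNTR1690. The others never passed 8.94 RPKM and did not all follow its course. The ENSMMUG entry averaged 4.16 RPKM at MII, 4.44 at PN, 1.54 at 4C and 1.88 at 8C. Entry IMMRNTR1691 averaged 1.66 RPKM at MII, 0.875 at PN, 0.781 at 4C and 0.33 at 8C. IMMRNTR1690 measured 1.78, 1.36 and 1.74 RPKM in PN embryos, against 7.48, 5.01 and 7.44 RPKM in MII oocytes (-1.53 ± 0.43, limma adjusted p = 0.0352). It measured 1.96 and 2.74 RPKM at 8C, against 0.094, 0.373 and 0.023 RPKM at 4C (1.53 ± 0.48, limma adjusted p = 0.0255). It measured 4.60, 16.4 and 4.92 RPKM at Mo, against the same 8C values (1.32 ± 0.48, limma adjusted p = 0.0499). The entry was thus lowest at 4C and had no overlap in any of these comparisons. The PN call ended without any 1 of the 6 libraries (adjusted p = 0.0535 to 0.114), with a pseudocount of 0.1 (0.12), with no filter (0.0511) and under median-of-ratios scaling (0.109). The 8C call ended without 4C library 1 (0.0607), 4C library 3 (0.0712), 8C library 1 (0.0623) or 8C library 2 (0.123). The Mo call ended without 8C library 1 (0.202), 8C library 2 (0.0919) or Mo library 2 (0.196, with a Mo mean of 4.76 RPKM), with a pseudocount of 0.1 (0.149), with no filter (0.0571), with a replicate block (0.0578) and in a fit of only these stages (0.356).

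EIF6, which keeps the large subunit from joining too early, had no call. Its entry spans only 29263245 to 29263620 on chromosome 10 and takes its name from the file. It measured 89.2 and 81.0 RPKM at GV, 36.7 and 40.0 at MI and 9.11, 1.82 and 9.04 at MII, and in later stages libraries spread from 0 in Mo library 2 to 190.2 RPKM in a Bl embryo. In MII against GV the difference was -3.71 (limma adjusted p = 0.0934).

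EIF5A and EIF5A2, factors that carry hypusine and help stalled ribosomes, were low or variable. EIF5A stayed at or below 11.3 RPKM. The ENSMMUG entry of EIF5A2 measured 35.5 and 5.26 RPKM at 8C and 24.8, 73.0 and 3.15 RPKM at Mo, against 0.337 and 0.467 RPKM at GV, and had no call in the 6 comparisons, although it was called in the F test (limma adjusted p = 0.003167). Libraries of the same stage differed by several fold. Another entry named EIF5A2, IMMRNTR3592, went the other way. It lies on chromosome 18, while the ENSMMUG entry lies on chromosome 2. Its name comes from the file, so it may not be part of the same gene. It was listed at 0 in all Mo and Bl libraries, and measured 4.53 and 5.23 RPKM at GV (limma adjusted p = 0.000897 in Bl against GV, held under every alternative). In MII oocytes it measured 0.255, 0.225 and 0.715 RPKM, against the same GV values (-2.09 ± 0.48, limma adjusted p = 0.0101). This MII call ended without GV library 1 (adjusted p = 0.0882) or GV library 2 (0.0895) and with a pseudocount of 0.1 (0.0677).

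The eEF1 genes were the most abundant of the elongation factors. Their 5 entries summed to means of 1355 RPKM at GV, 1353 at MII, 1816 at 4C, 1548 at 8C, 4883 in morulae and 4839 in blastocysts. Of this, EEF1E1, named for its resemblance to eEF1, averaged 455 RPKM at GV, 590 at MII, 698 in morulae and 237 in blastocysts. EEF1A1 (ENSMMUG00000004852, chromosome 4, 69758999 to 69763123), which carries aminoacyl-tRNA to the ribosome, measured 2607, 3083 and 5082 RPKM in Mo embryos, against 1171 and 989 RPKM in 8C embryos (1.68 ± 0.44, limma adjusted p = 0.00755). It measured 3177 and 2175 RPKM in Bl embryos, against 501 and 550.4 RPKM in GV oocytes (2.32 ± 0.48, limma adjusted p = 0.000814). Every Mo embryo was above both 8C embryos, and the Bl call held under every alternative. The Mo call ended without 8C library 2 (adjusted p = 0.0569) and in a fit of only these stages (0.0935). Its paralogue EEF1A2 never reached 1 RPKM. Copies of EEF1A1 are many in primate genomes, and how their reads were counted is not given in the sources used here.

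EEF1A1 had its lowest stage mean at MII. It measured 429, 679 and 466 RPKM in PN embryos, against 194, 172 and 243 RPKM in MII oocytes (1.35 ± 0.39, limma adjusted p = 0.0394), and all PN values were above all MII values. The call ended without any 1 of the 6 libraries (adjusted p = 0.057 to 0.15), with no filter (0.0603) and under median-of-ratios scaling (0.0867). The MII values were also below those of GV oocytes without overlap, but not called (-1.38, limma adjusted p = 0.0528). Shares of EEF1A1 were taken of the summed RPKM of the eEF1 entries, EEF1E1 among them. MII oocytes held 14.5% to 15.9%, PN embryos 36.6% to 49.5% and 4C embryos 22.03% to 52.37%. In 8C embryos the share was 68.0% to 72.1%, and in blastocysts it was 54.2% to 57.1%. EEF1E1 itself took a mean of 42.75% in MII oocytes, 8.77% in 8C embryos and 4.75% in blastocysts. The EEF1A1 share therefore depends on the level of EEF1E1 as well.

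**Figure D5:**
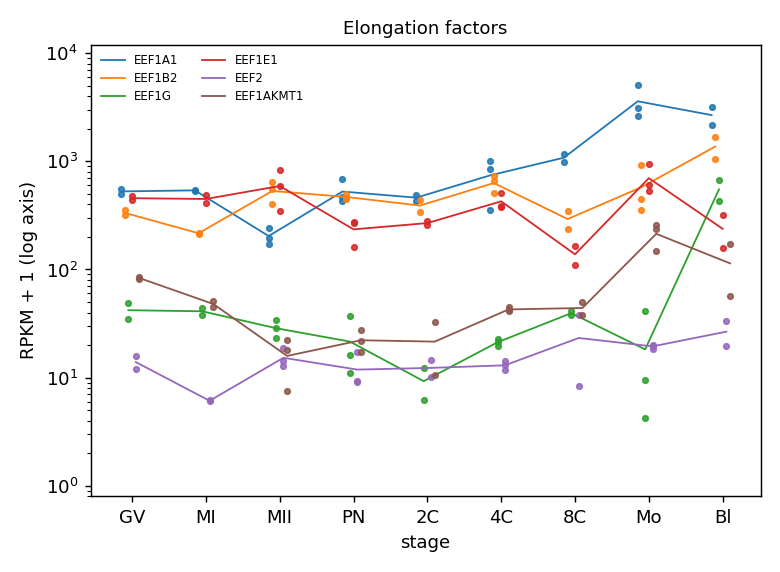
RPKM + 1 on a log axis by stage for 5 elongation factor genes and the methyltransferase gene EEF1AKMT1; points are libraries and lines join stage means. EEF1A1 has its lowest points at MII and is between 2175 and 5082 RPKM in the Mo and Bl embryos, and EEF1G is highest in both Bl embryos.

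The subunits of eEF1B, which recharges eEF1A, followed other courses. EEF1G (ENSMMUG00000006598, chromosome 14, 11518975 to 11531973), the gamma subunit, measured 666 and 432 RPKM in Bl embryos, against 8.47, 3.20 and 40.0 RPKM in Mo embryos (5.51 ± 0.69, limma adjusted p = 1.949e-05). This was the largest called difference among the 66 entries in any of the 6 comparisons. The difference was 4.77 without Mo library 2 and 6.41 without Mo library 3, whose removal took the Mo mean of 17.2 RPKM to 5.84 RPKM. In a fit of only these stages the adjusted p was 0.129. In no stage before Bl did a library pass 47.9 RPKM, and in Bl against GV, at 47.9 and 34.1 RPKM, the call held under every alternative (3.70 ± 0.75, limma adjusted p = 0.000763).

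EEF1B2, the beta subunit that performs the exchange, was above 200 RPKM in every library. It measured 1689 and 1048 RPKM in Bl embryos, against 315 and 351 RPKM in GV oocytes (2.00 ± 0.45, limma adjusted p = 0.00177), a call that held under every alternative. Against the 354, 923 and 452 RPKM of Mo embryos the difference was 1.33 ± 0.41 (limma adjusted p = 0.0358). That second call ended without Mo library 1 (adjusted p = 0.115), Mo library 3 (0.0747) or Bl library 1 (0.3), under median-of-ratios scaling (0.477, log2 difference 0.70), with a replicate block (0.0527) and in a fit of only these stages (0.356). EEF1D, the delta subunit, has an entry on chromosome 11 that takes its name from the file, and it passed 1 RPKM in only 2 libraries, with 16.9 RPKM in 1 Bl embryo and 0.167 RPKM in the other.

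EEF1E1, named for its resemblance to eEF1 and known as a scaffold of the multi-tRNA synthetase complex, went down and up in turn. It measured 164 and 109.9 RPKM at 8C, against 389, 509 and 379 RPKM at 4C (-1.64 ± 0.44, limma adjusted p = 0.01). It measured 536, 951 and 607 RPKM at Mo, against the same 8C values (2.32 ± 0.44, limma adjusted p = 0.000611). It measured 318 and 156 RPKM at Bl, against the same Mo values (-1.60 ± 0.44, limma adjusted p = 0.0192). No 2 neighbouring stages among these overlapped. The 8C call ended without 8C library 2 (adjusted p = 0.0934) and under median-of-ratios scaling (0.0623). The Mo call ended in a fit of only these stages (0.0509), and the Bl call without Bl library 2 (0.234) and in such a fit (0.218).

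EEF2, the translocase, and its inhibitory kinase EEF2K were much lower than eEF1 in RPKM. The main EEF2 entry averaged 12.9 ± 2.74 RPKM at GV, 14.3 ± 3.10 at MII, 12.0 ± 1.29 at 4C, 22.3 ± 21.0 at 8C, 18.4 ± 0.986 in morulae and 25.6 ± 9.63 in blastocysts. It had no call in any comparison or in the F test. Neither had the EEF2 entry IMMRNTR2462, at 0.237 to 12.7 RPKM, which lies on chromosome 6 while the main entry lies on chromosome 19. The ENSMMUG entry of EEF2K measured 0.716 and 2.10 RPKM at 8C, against 10.008, 5.49 and 7.26 RPKM at 4C (-1.86 ± 0.59, limma adjusted p = 0.0276). A further entry named EEF2K by the file, IMMRNTR2825, lies on chromosome 11, while the ENSMMUG entry lies on chromosome 20. It may not be part of the same gene. It measured 0.702 and 1.47 RPKM at 8C, against 0.076, 0.109 and 0 RPKM at 4C (0.95 ± 0.30, limma adjusted p = 0.0268). In all libraries before 4C it was listed at 0. The first of these calls ended without 4C library 1 (adjusted p = 0.0846), 4C library 3 (0.0578) or 8C library 1 (0.216), with a pseudocount of 0.1 (0.081) and in a fit of only these stages (0.0545). The second ended without 4C library 1 (0.0533), 4C library 3 (0.0695) or 8C library 2 (0.197), with a replicate block (0.0519) and in that fit (0.0837).

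Enzymes that methylate the elongation factors were called in both directions. EEF1AKMT1, which methylates a lysine of eEF1A, measured 237, 147 and 255 RPKM at Mo, against 49.4 and 36.7 RPKM at 8C (2.25 ± 0.55, limma adjusted p = 0.0051). In MII oocytes it measured 16.9, 6.55 and 21.2 RPKM, against 81.2 and 83.4 RPKM in GV oocytes (-2.53 ± 0.55, limma adjusted p = 0.007075), with MI between them at 44.2 and 49.7 RPKM. The stages did not overlap in either comparison. EEF2KMT, the enzyme that methylates eEF2, measured 3.86 and 2.10 RPKM in Bl embryos, against 0, 0 and 0.957 RPKM in Mo embryos (1.63 ± 0.33, limma adjusted p = 0.00197) and 0.824 and 0.442 RPKM in GV oocytes (1.26 ± 0.36, limma adjusted p = 0.00964). EEF2KMT reached 1 RPKM only in the 2 Bl libraries and passed the level rule through them. Its calls at Bl are therefore not independent of that rule and give no separate support for a rise. A related enzyme gene, EEF1AKMT2, was called in the F test only, with 25.6 and 14.8 RPKM at 8C and 0.238 and 0.350 RPKM at 2C. The EEF1AKMT1 call at MII ended without GV library 1 (adjusted p = 0.0845) or GV library 2 (0.0646) and in a fit of only these stages (0.0607), and its Mo call in such a fit (0.0504). The EEF2KMT call against Mo ended in such a fit (0.195). That against GV ended without GV library 2 (0.0817) or Bl library 1 (0.107), with a pseudocount of 0.1 (0.168) and in such a fit (0.067).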

How the data were processed

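Poly(A)-primed RNA libraries of 22 single oocytes or embryos at 9 stages were used. The authors deposited 1 table of RPKM values per library and entry, with positions on the build Mmul 8.0.1 per the submitters' processing notes. The aligner, the counting method, the treatment of strand and of shared reads, and the annotation are not given in the sources used here, so entries that share or overlap sequence are uncertain. Symbols were taken from the file or, for 46 of the 66 entries, from a table of gene names matched by identifier. Steps between low values of entries spanning under 200 bp gave the depth: 357 of 362 such values, 98.6%, lay within 0.05 of a whole number of reads. No count test was run.

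RPKM values were tested as log2(RPKM + 1), which understates changes of low entries, with limma 3.58.1 in R 4.3.3 (linear model over all 9 stages, 13 residual degrees of freedom, empirical Bayes moderation). The fit covered the 14312 entries that reached 1 RPKM in 2 or more libraries. P-values were adjusted by Benjamini-Hochberg over all of them, and a call is an adjusted p under 0.05. Summaries were made in Python 3.11.15 (pandas 2.3.3, numpy 2.4.6) and drawn with matplotlib 3.10.9. The tests were tested on simulated data.

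Genes were named if called with at least 10 RPKM in the higher stage and no overlap between libraries (up to 6 in each direction per comparison), if among the 2 highest entries of a complex, or if in a panel of paralogues. Other called entries are described to account for all members. The members, lists and rules were chosen with earlier results of these data known. Alternatives were a pseudocount of 0.1, no filter, a filter of 5 RPKM, median-of-ratios scaling over 5405 entries, a replicate block, a fit of only the stages compared, and leaving out each library of the stages compared and Mo library 2. A count over entries with ENSMMUG identifiers alone was added after seeing the data. Of 78 same-numbered pairs across stages, 3 had deviations correlated above 0.1. These were library 1 of PN and 2C (0.204), library 2 of PN and 2C (0.324) and library 2 of Mo and Bl (0.12). Deviations from means of 2 or 3 libraries are tied to one another within a stage. The check therefore cannot exclude shared donors or batches.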

Additional observations from a re-analysis of the deposited data

How the results depend on the processing

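No named log2 difference that was called, in the main fit or in an alternative, reversed its direction. Differences without a call could change sign. For EIF6 in 8C against 4C the difference was -0.11 in the main fit and 0.12 under median-of-ratios scaling. In MII against GV oocytes the 7 calls became 4 with a pseudocount of 0.1, 4 under median-of-ratios scaling and 16 in a fit of only these stages, and ran from 0 to 11 with 1 library left out. In PN embryos against MII oocytes the 2 limma calls became 1 with that pseudocount, 1 over entries with ENSMMUG identifiers alone, 0 with no filter and 0 under that scaling (7 and 6 entries at an unadjusted p under 0.05), and ran from 0 to 4 with 1 library left out. Fits of only the stages compared gave 2 calls in place of 12 in Mo against 8C and 0 in place of 9 in Bl against Mo (limma, 8 at an unadjusted p under 0.05). They have fewer libraries. With 1 library left out, calls ran from 11 to 25 in 8C against 4C, 5 to 14 in Mo against 8C, 3 to 12 in Bl against Mo and 13 to 26 in Bl against GV. The F test gave 39 to 47 calls in place of 43. Shares over all tested entries are not given for these other fits. With a replicate block the counts were 8 in MII against GV, 2 in PN against MII, 16 in 8C against 4C, 10 in Mo against 8C, 8 in Bl against Mo and 21 in Bl against GV, although the numbers share no stated origin. Of 69 calls in the 6 comparisons, 18 held under every alternative, 45 ended without some library, 29 ended in a fit of only the stages compared, 17 with the lower pseudocount, 13 under scaling, 8 with the block and 5 without Mo library 2. Other causes of these changes were not tested. With 2 or 3 libraries per stage, and RPKM near 1 resting on few reads, small differences were not detectable.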

Other observations

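Of other genes of translation, on a list of 42 genes, 37 were tested as 39 entries. By limma adjusted p under 0.05, 7 entries rose and 3 fell in 8C against 4C embryos, near the background of 13.9% and 10.2% of all tested entries. In Mo against 8C 7 rose and 7 fell (background 5.39% and 20.0%), and in Bl against Mo 6 rose and 0 fell (12.0% and 2.12%). In Bl against GV 8 rose and 8 fell (12.0% and 24.7%). In PN against MII 3 rose and 0 fell (4.76% and 2.91%), and in MII against GV 0 rose and 3 fell (0.342% and 8.97%). DENR, a factor in ribosome recycling, averaged 44.7 ± 10.6 RPKM at 8C and 0.148 ± 0.256 RPKM at 4C (log2 difference 5.32, limma adjusted p = 1.591e-08). DDIT3, a transcription factor of the stress response that follows eIF2 alpha phosphorylation, averaged 332 ± 92.1 RPKM at 8C and 18.7 ± 18.7 RPKM at 4C (4.74, limma adjusted p = 0.00778). PAIP1, which links the poly(A) binding protein to the initiation complex, averaged 264 ± 15.6 RPKM at 8C and 1263 ± 177 RPKM at 4C (-2.25, limma adjusted p = 0.00102), and 14.9 ± 5.14 RPKM at Mo (-4.11 against 8C, limma adjusted p = 1.481e-06).

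DPH3 and GSPT1 fell across maturation and rose at the next stage. DPH3, which helps to make the diphthamide residue of eEF2, averaged 2.22 ± 1.43 RPKM in MII oocytes and 37.0 ± 2.35 RPKM in GV oocytes (-3.67, limma adjusted p = 0.000266), and 34.4 ± 11.1 RPKM in PN embryos (3.51 against MII, limma adjusted p = 4.798e-05). GSPT1, the release factor eRF3a, averaged 33.3 ± 7.99 RPKM at MII and 123.2 ± 13.8 RPKM at GV, and 126 ± 17.6 RPKM at PN. For these genes no library was left out in turn, and poly(A) tail length was not measured.

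The start codon factors EIF1, EIF1B and EIF1AX stand in the table under other symbols, so the symbol rule did not reach them. They were found through the file's descriptions after the file was seen, and they get no test. EIF1 averaged 157 RPKM at 8C and 39.0 RPKM at 4C, and its 8C embryos, at 115 and 199 RPKM, were above the 4C embryos, at 28.7, 30.1 and 58.3 RPKM. EIF1B averaged 393 RPKM at 8C and 276 RPKM at 4C, but its 8C values, 281 and 504 RPKM, overlapped the 4C values, 215, 159 and 456 RPKM. EIF1AX, on chromosome X, averaged 139.7 RPKM at Mo and 53.7 RPKM at 8C. Its Mo values, 70.4, 179 and 170 RPKM, overlapped the 8C values, 75.0 and 32.3 RPKM.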
